A study of Xenopus tropicalis with 27 samples.

Results

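The genes of cholesterol and sterol synthesis, together with the genes that supply the pathway, sense its product and move that product between cells, were followed by RNA sequencing in brains of Xenopus tropicalis tadpoles. Of 38 genes listed by symbol, 34 had a row in both deposited count tables, which hold 16212 genes in the drug experiment and 16049 genes in the time course. The symbols pmvk, ebp, insig2 and nr1h3 had no row of their own and were not analysed here. Rows without a symbol made up 19.6% of the drug experiment and 19.5% of the time course. These genes, and markers given below as not measured, may be among them. The drug experiment had 3 groups of 3 libraries, each from 3 pooled brains taken at stage 46. Tadpoles were kept from stage 30 on in 10 µM β-estradiol (an estrogen), in 5 µM cyclopamine (a steroid-like alkaloid of corn lilies that binds and inhibits Smoothened, which passes on the Hedgehog signal) or in DMSO, the vehicle. The time course had 3 libraries of untreated wildtype brain at each of stages 40, 42, 44, 45, 46 and 47. Bulk brain RNA was sequenced, so fewer cells of a type and less RNA per cell cannot be told apart.

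Cholesterol is built from acetyl-CoA. The mevalonate steps make isoprenoid units, farnesyl diphosphate is the branch point towards other prenyl products, the squalene steps close the ring system, and the sterol steps trim lanosterol down to cholesterol. When membranes run low in sterol, SCAP escorts SREBP transcription factors from the endoplasmic reticulum and synthesis and uptake genes are switched on, whereas INSIG proteins hold SCAP back. Oxysterols activate LXR receptors, which switch on the efflux pumps ABCA1 and ABCG1 and the ligase MYLIP, which removes the LDL receptor. In mammals the brain makes nearly all of its own cholesterol. Sterols also bind Smoothened, and Hedgehog ligands carry cholesterol.

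A library of the drug experiment held 17.6 to 28.5 M read counts, and a library of the time course 12.9 to 48.3 M. Levels are given as CPM (read counts scaled to a common library total) after TMM scaling (a correction for composition), which are not per length and are compared only within a gene. A gene was called at an adjusted p under 0.05 in edgeR's quasi-likelihood test over all genes of its table, and fold changes are log2 values ± SE with 3 libraries per group. All 10 neuronal markers on a list were measured in both tables, at a sum of 4882 to 6413 CPM with cyclopamine, 4526 to 7010.1 CPM with estradiol and 6295 to 6904 CPM in DMSO. Libraries of the drug groups also differed in markers of other tissues, none of which was at 0 throughout a group. The sum of 9 measured of 13 skeletal muscle markers was 75.2 to 148 CPM with cyclopamine, 23.6 to 44.5 CPM with estradiol and 9.17 to 13.1 CPM in DMSO. For 9 of 10 endothelial markers it was 325 to 474, 198 to 334 and 174 to 193 CPM, for 7 of 11 leukocyte markers 87.3 to 116, 57.7 to 93.4 and 33.0 to 40.1 CPM, and for 6 of 11 epidermal markers 134 to 259, 114 to 138 and 92.6 to 132 CPM. For 8 of 9 melanocyte markers it was 45.6 to 127, 27.8 to 61.3 and 23.3 to 23.7 CPM, and for 5 of 8 red blood cell markers 359.8 to 505, 359.5 to 1329 and 188 to 413 CPM. With cyclopamine 7 muscle, 8 endothelial, 7 leukocyte, 2 epidermal, 6 melanocyte and 0 red blood cell markers were called higher, as were 9.97% of all genes. With estradiol these counts were 2, 0, 4, 0, 2 and 1, with 1.23% of all genes. Of the 10 neuronal markers 3 were called lower with cyclopamine and 0 with estradiol, as were 9.59% and 0.833% of all genes. Of cells known for making much cholesterol, 7 of 10 radial glia and astroglia markers summed to 4962 to 6155, 5392 to 6817 and 5015 to 5728 CPM, 8 of 9 oligodendrocyte markers to 204 to 225, 190.5 to 238 and 290 to 305 CPM, and the 3 of 10 hepatocyte markers that were measured, with albumin not among them, to 18.5 to 24.1, 13.4 to 22.6 and 19.4 to 21.0 CPM. The part of these tissues in the results below was not tested. Whether the drug groups had reached the same point of development was not tested either.

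With cyclopamine most genes of the synthesis pathway rose and the sterol efflux genes abca1 and abcg1 fell. Of the 34 genes, 19 rose, 4 fell and 11 did not pass, where 9.97% of all genes rose and 9.59% fell (19.6% in either direction). The median log2 fold change was 0.45 over the 34 genes and -0.08 over all genes tested. All cyclopamine libraries lay above all DMSO libraries for 21 of the 34 genes and below for 6, where 19% and 30.2% of all genes did. Among the 19 genes from the mevalonate to the sterol steps, 14 rose. Of their 19 log2 fold changes 18 were above 0, with a median of 0.75. These 19 are called enzyme genes below, although erg28, which is among them, encodes a scaffold. The count of 23 calls was 15 without DMSO replicate 1 and 13 without DMSO replicate 2, when 6.95% and 8.25% of all genes were called, and it was 16 when cyclopamine replicate 1 was kept as the sole library of that group, an alternative added once the data had been seen, in which that library is assumed to vary like those of the other groups. When RLE size factors (a median-ratio scaling) replaced TMM, 19 of the 34 genes rose and 3 fell, while the split over all genes went from 1616 higher and 1555 lower to 1763 and 862.

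**Figure D1:**
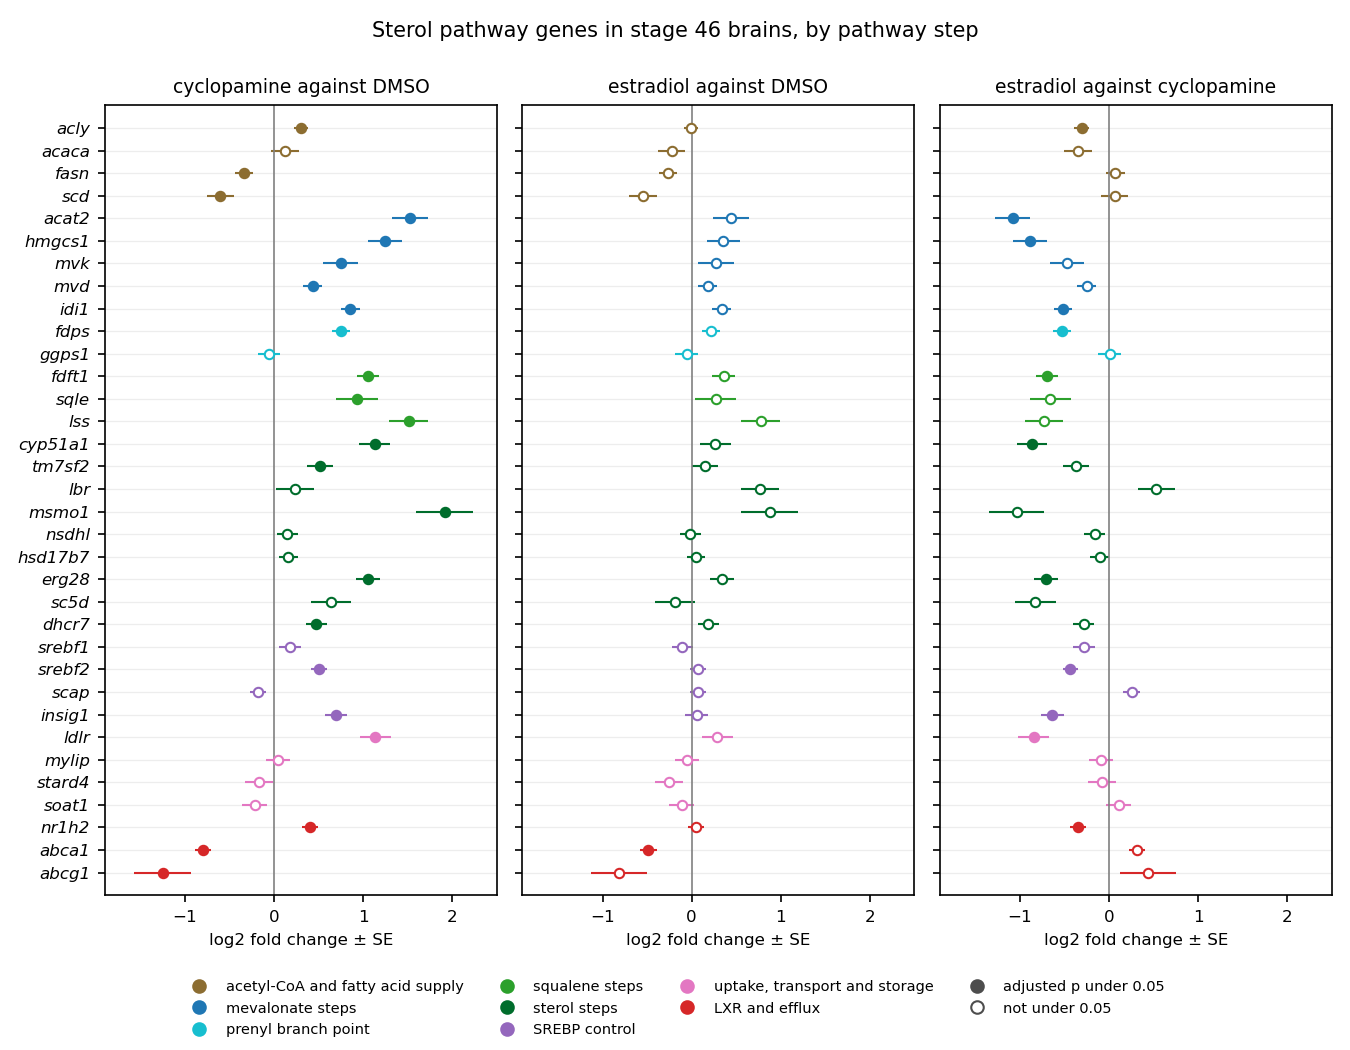
Log2 fold change ± SE (x axis) of the 34 genes (y axis, in pathway order, coloured by step) for cyclopamine against DMSO, estradiol against DMSO and estradiol against cyclopamine, 3 libraries per group; filled points have an adjusted p under 0.05. With cyclopamine the mevalonate, squalene and most sterol genes lie to the right of 0 and abca1 and abcg1 to the left, while with estradiol only abca1 is filled.

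All 5 measured genes of the mevalonate steps rose with cyclopamine. The cytosolic thiolase acat2, which starts the pathway by joining acetyl-CoA units, stood at 10.1, 8.45 and 9.38 CPM in DMSO replicates 1, 2 and 3, at 32.05, 21.5 and 26.6 CPM with cyclopamine and at 16.4, 11.1 and 10.4 CPM with estradiol. Every cyclopamine library lay above every other library (log2 fold change 1.52 ± 0.20 against DMSO, adjusted p = 0.00109). The HMG-CoA synthase hmgcs1, the next enzyme, stood at 104, 90.02 and 97.9 CPM in DMSO, 277, 197 and 217 CPM under cyclopamine and 166, 103 and 105 CPM with estradiol. Again the cyclopamine libraries stood apart (1.24 ± 0.19, adjusted p = 0.00222), and estradiol replicate 1 was the one estradiol library well above DMSO. The isomerase idi1 rose by 0.86 ± 0.10. The mevalonate kinase mvk rose by 0.75 ± 0.20, a call lost without cyclopamine replicate 1 or DMSO replicates 2 or 3. It was also lost with limma on the deposited values (adjusted p = 0.063). The decarboxylase mvd rose by 0.43 ± 0.11, a call lost without cyclopamine replicate 2 or any DMSO library.

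At the branch point the genes differed. The farnesyl diphosphate synthase fdps, which feeds squalene, stood at 47.4, 43.4 and 47.6 CPM in DMSO and 80.6, 69.2 and 82.9 CPM with cyclopamine, groups that did not overlap (0.75 ± 0.10, adjusted p = 0.00124). The geranylgeranyl diphosphate synthase ggps1, which leads away from sterols towards protein prenylation, stood at 15.98, 15.5 and 17.4 CPM and 14.9, 17.7 and 14.4 CPM, groups that overlapped (-0.06 ± 0.13, adjusted p = 0.761).

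All of the squalene genes rose. The squalene synthase fdft1, the first enzyme committed to sterols, rose by 1.05 ± 0.13 (28.3, 28.9 and 23.9 CPM in DMSO, 58.1, 49.02 and 61.2 CPM with cyclopamine), a call that held without each single library. The squalene epoxidase sqle rose by 0.93 ± 0.23, a call lost without cyclopamine replicate 1 or DMSO replicates 2 or 3. The lanosterol synthase lss, which closes the rings, stood at 13.1, 9.20 and 9.53 CPM in DMSO, 35.8, 25.5 and 29.2 CPM under cyclopamine and 22.03, 12.99 and 19.7 CPM with estradiol. The lowest cyclopamine library lay above the highest estradiol library (1.51 ± 0.22 for cyclopamine against DMSO, adjusted p = 0.00179).

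Of the 9 sterol-step genes 5 rose and 4 did not pass. The methyl sterol oxidase msmo1 had the largest fold change of the 34 genes with cyclopamine. It stood at 14.6, 10.3 and 12.2 CPM in DMSO, 53.7, 40.6 and 45.8 CPM under cyclopamine and 36.1, 13.1 and 19.1 CPM with estradiol. Cyclopamine libraries lay above all others, and estradiol replicate 1 came closest (1.91 ± 0.32, adjusted p = 0.0045). The scaffold erg28, which in yeast holds the demethylating enzymes together, rose by 1.05 ± 0.14 (10.9, 9.37 and 10.5 CPM in DMSO, 23.2, 18.8 and 21.6 CPM with cyclopamine). The lanosterol demethylase cyp51a1 rose by 1.13 ± 0.17 (33.9, 29.6 and 34.6 CPM in DMSO, 86.5, 59.2 and 68.7 CPM with cyclopamine). The enzyme genes nsdhl (0.15 ± 0.12) and hsd17b7 (0.16 ± 0.11) did not pass. The reductase dhcr7, which completes cholesterol in one of the pathway's branches, rose by 0.47 ± 0.12, a call lost without cyclopamine replicate 2 or DMSO replicates 1 or 2.

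The genes tm7sf2 and lbr encode enzymes that reduce the same double bond of the sterol nucleus, and the LBR protein also anchors chromatin at the nuclear envelope. The gene tm7sf2 stood at 15.3, 20.1 and 20.1 CPM in DMSO and 30.6, 23.8 and 24.9 CPM with cyclopamine. Its cyclopamine libraries lay above DMSO (0.52 ± 0.15, adjusted p = 0.035), but the call held without cyclopamine replicate 2 and was lost without each of the other libraries and with a replicate block (adjusted p = 0.0559). The gene lbr stood at 8.71, 7.77 and 9.88 CPM in DMSO, 10.6, 9.50 and 10.96 CPM under cyclopamine and 10.9, 13.4 and 20.6 CPM with estradiol. DMSO and cyclopamine libraries overlapped (0.24 ± 0.22, adjusted p = 0.45), and estradiol replicate 3 was the highest of the 9. The desaturase sc5d had 0.64 ± 0.23 and an adjusted p of 0.0687; it passed with DESeq2 (adjusted p = 0.0249) and in a fit of these groups alone (adjusted p = 0.00839).

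The control genes moved unevenly with cyclopamine. The gene of the sterol-responsive factor, srebf2, stood at 168, 153 and 167 CPM in DMSO, 246, 211 and 235 CPM under cyclopamine and 166, 175 and 171 CPM with estradiol. The cyclopamine libraries did not overlap with the others (0.50 ± 0.09, adjusted p = 0.0042). Its relative srebf1, which in mammals chiefly drives fatty acid genes, had libraries at 81.2, 78.4 and 92.4 CPM in DMSO that overlapped with those at 103, 82.6 and 98.9 CPM with cyclopamine (0.18 ± 0.12, adjusted p = 0.318). The retention factor insig1, itself a SREBP target in mammals, stood at 28.9, 26.1 and 27.4 CPM in DMSO, 50.8, 38.8 and 43.7 CPM under cyclopamine and 28.8, 31.9 and 24.9 CPM with estradiol, again with cyclopamine above all other libraries (0.69 ± 0.13, adjusted p = 0.00558). The escort scap did not pass (-0.18 ± 0.09, adjusted p = 0.182).

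Among genes of uptake, transport and storage, the LDL receptor gene ldlr rose. It stood at 61.7, 49.3 and 55.9 CPM in DMSO, 142, 101 and 123 CPM under cyclopamine and 84.9, 54.3 and 64.7 CPM with estradiol, and its call held without each single library (1.14 ± 0.17, adjusted p = 0.00237). The receptor's ligase mylip (0.04 ± 0.13), the sterol carrier stard4 (-0.17 ± 0.16) and the esterifying enzyme soat1 (-0.22 ± 0.14) did not pass.

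The efflux genes went the other way from synthesis. The pump abca1, which loads cholesterol onto apolipoproteins, stood at 409, 403 and 382 CPM in DMSO, 237, 221 and 229.6 CPM under cyclopamine and 291, 305 and 257 CPM with estradiol. The groups were in the order cyclopamine, estradiol, DMSO with no overlap (-0.80 ± 0.09 for cyclopamine against DMSO, adjusted p = 0.000552), and the cyclopamine call held without each single library. The related transporter abcg1 stood at 29.7, 29.2 and 22.9 CPM in DMSO, 12.4, 11.7 and 10.3 CPM under cyclopamine and 14.2, 24.3 and 7.85 CPM with estradiol. Cyclopamine libraries lay below DMSO (-1.25 ± 0.32, adjusted p = 0.0244), estradiol replicate 2 lay within the DMSO range and estradiol replicate 3 below all cyclopamine libraries, and the call was lost without any cyclopamine library or DMSO replicates 1 or 2. The LXR receptor gene nr1h2 rose by 0.40 ± 0.09 (40.4, 41.2 and 41.7 CPM in DMSO, 59.5, 51.2 and 52.05 CPM with cyclopamine), a call lost without DMSO replicates 1 or 2. The 4 falls, which also include scd and fasn, were reduced to 1, abca1, without any cyclopamine library or without DMSO replicates 1 or 2.

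Fatty acid supply did not follow sterol synthesis. The citrate lyase acly, which makes cytosolic acetyl-CoA for both, rose by 0.30 ± 0.08, a call that held without cyclopamine replicate 1 and was lost without each of the other libraries. The carboxylase acaca, the first enzyme committed to fatty acids, did not pass (0.12 ± 0.16, adjusted p = 0.585). The synthase fasn fell by 0.34 ± 0.10, a call lost without each single library, under RLE scaling and with a replicate block (adjusted p = 0.0544), among others. The desaturase scd, which makes monounsaturated fatty acids, stood at 96.7, 88.4 and 81.7 CPM in DMSO, 64.4, 54.6 and 56.7 CPM under cyclopamine and 55.5, 78.1 and 49.4 CPM with estradiol. All drug libraries lay below DMSO, with a call for cyclopamine (-0.60 ± 0.16, adjusted p = 0.0247) and none for estradiol (-0.54 ± 0.16, adjusted p = 0.0925). The cyclopamine call was lost without any cyclopamine library or DMSO replicates 1 or 2. It was also lost with limma on the deposited values (adjusted p = 0.0628).

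**Figure D2:**
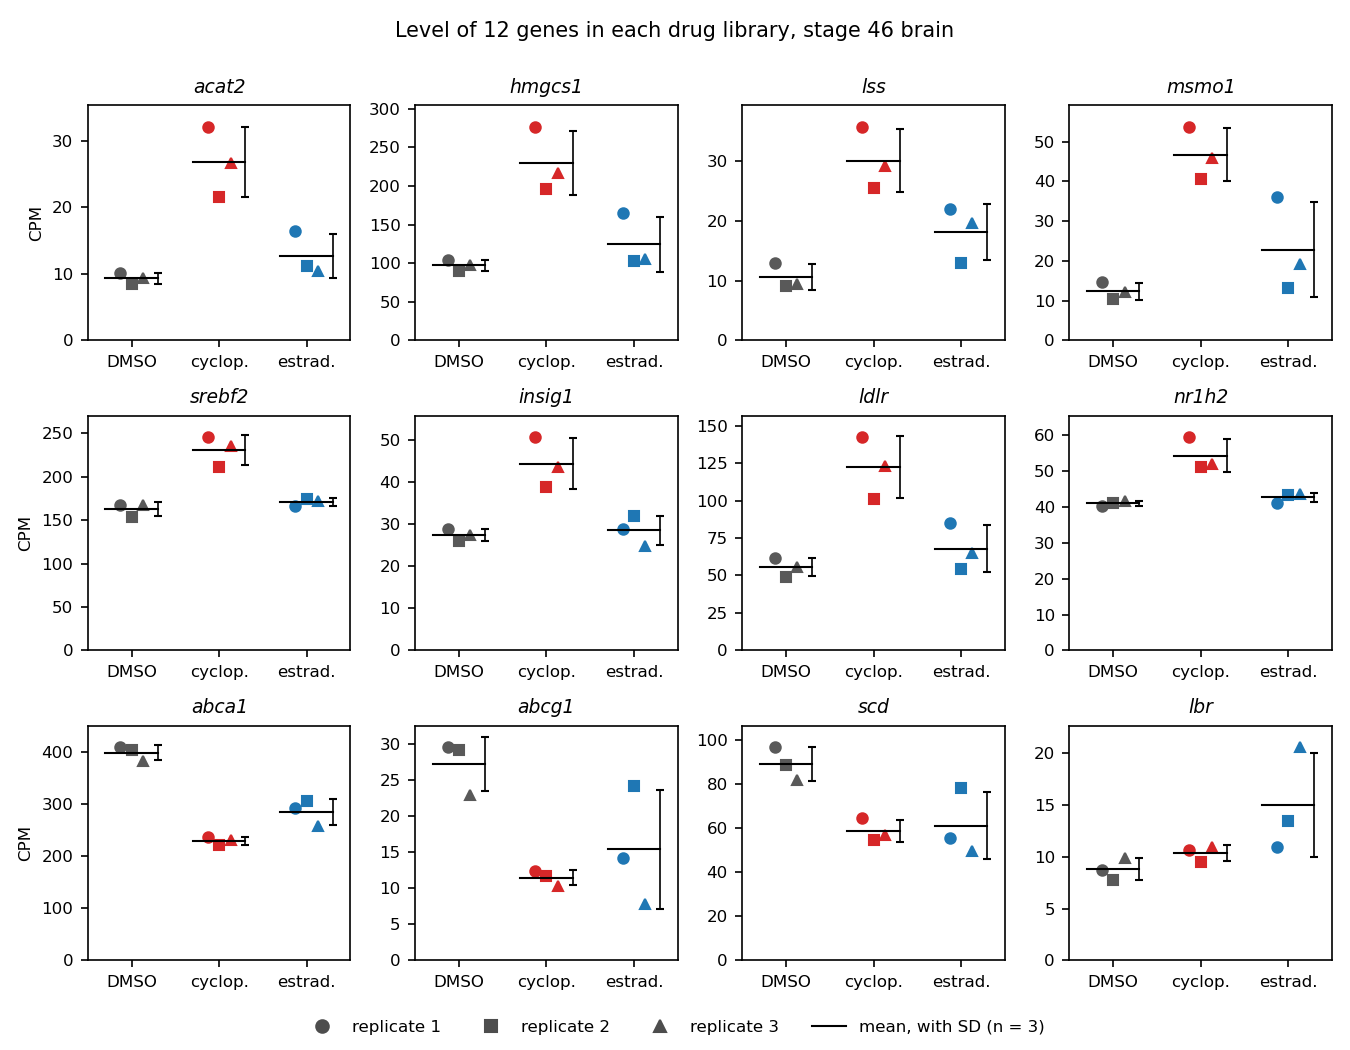
Level in CPM (y axis, from 0) of 12 genes in each DMSO, cyclopamine and estradiol library (x axis); symbols are replicates, and bars show the mean with its SD (n = 3). For acat2, hmgcs1, lss, msmo1, srebf2, insig1, ldlr and nr1h2 the 3 cyclopamine libraries are the highest, and for abca1 the 3 groups are separate, with DMSO at 382 to 409 CPM, estradiol at 257 to 305 CPM and cyclopamine at 221 to 237 CPM.

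With estradiol 1 of the 34 genes was called, abca1, which fell by 0.48 ± 0.09 (adjusted p = 0.0298); 2.07% of all genes were called in this comparison and 0.833% fell. That call was lost without estradiol replicate 1 or any DMSO library. All estradiol libraries lay above all DMSO libraries for 7 of the 34 genes and below for 3, where 13.8% and 13.1% of all genes did. None of the 34 genes rose in the main edgeR fit, where 1.23% of all genes did, and at an unadjusted p under 0.05 there were 6 higher and 4 lower, where 12.1% and 10.2% of all genes were. In edgeR with a replicate block lss was called higher (0.77, adjusted p = 0.0317). DESeq2 called 3 genes higher (lss, lbr and msmo1) and 2 lower (abca1 and scd) and limma on the deposited normalized values called 0. Of the 19 enzyme genes from the mevalonate to the sterol steps, 16 log2 fold changes were above 0, with a median of 0.27, against a median of 0.01 over all genes. The values for lss (0.78 ± 0.22), msmo1 (0.88 ± 0.32) and lbr (0.77 ± 0.22) were the highest, with an adjusted p of 0.0882, 0.154 and 0.0878. The efflux gene abcg1 had -0.81 ± 0.31 and an adjusted p of 0.172, and was called without estradiol replicate 2 (-1.30, adjusted p = 0.0198). That setting also called lss (adjusted p = 0.0219), msmo1 (adjusted p = 0.0302), scd (adjusted p = 0.0132) and abca1, 5 of the 34 genes, while 9.31% of all genes were called. The control genes srebf2 (0.07 ± 0.09), srebf1 (-0.10 ± 0.12), insig1 (0.06 ± 0.13) and scap (0.07 ± 0.09) did not pass. The drug comparisons share the DMSO libraries, so their values for a gene are not independent.

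In the direct contrast of estradiol with cyclopamine 12 of the 34 genes were called, each of them lower with estradiol, where 2.60% of all genes were lower and 4.16% higher (6.77% in either direction). The 12 were acly, acat2, hmgcs1, idi1, fdps, fdft1, cyp51a1, erg28, srebf2, insig1, ldlr and nr1h2. Among these 12 the difference was largest for acat2 (by 1.08 ± 0.20 on the log2 scale, adjusted p = 0.0112), hmgcs1 (by 0.89 ± 0.19), cyp51a1 (by 0.86 ± 0.17) and ldlr (by 0.85 ± 0.17). The estradiol libraries of cyp51a1 stood at 47.95, 38.2 and 31.8 CPM, those of erg28 at 14.1, 11.4 and 13.5 CPM and those of fdft1 at 39.4, 32.9 and 31.7 CPM. All of them lay below the cyclopamine libraries given above. Such a separation was found for 21 of the 34 genes and 9.34% of all genes, and the reverse for 2 and 15.3%. No gene of the 34 was higher with estradiol in edgeR or limma with all libraries, DESeq2 called abca1 higher, and at an unadjusted p under 0.05 there were 3 higher and 22 lower, where 13.8% and 9.04% of all genes were. The difference in msmo1 (-1.04 ± 0.31) had an adjusted p of 0.0785 with all libraries and 0.00574 without estradiol replicate 1. Between the drugs, abca1 (0.31 ± 0.09), abcg1 (0.44 ± 0.32), fasn (0.07 ± 0.10) and scd (0.06 ± 0.16) did not pass. The count of 12 was 7 without cyclopamine replicate 1, 7 without cyclopamine replicate 3, 6 with cyclopamine replicate 1 as the sole library of its group and 1, fdft1, in a fit of these 6 libraries only. The main fit shares its estimate of the spread with the DMSO libraries, which this contrast does not use. The common spread within a group (a coefficient of variation) was 0.216 for estradiol, 0.204 for cyclopamine and 0.089 for DMSO. Over all genes the split of 675 higher and 422 lower became 473 and 516 under RLE scaling, with which 13 of the 34 genes were lower.

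In untreated brains the enzyme genes had their highest mean levels between stages 42 and 45 and most of them were lowest at stage 47. All 34 genes differed among the 6 stages, as did 88.4% of all genes. Every one of the 19 enzyme genes from the mevalonate to the sterol steps had its highest mean at stage 42 (6 genes), 44 (7 genes) or 45 (6 genes), whereas the shares of all genes that peaked at these stages were 9.15%, 7.86% and 7.27%, with 32.5% at stage 40 and 37.7% at stage 47. The place of the highest mean was not tested, and for some genes that mean lay near stage 40 (lbr at 18.9 against 18.6 CPM, fdps at 127 against 116 CPM). For idi1, fdps, ggps1, lss, tm7sf2, lbr and dhcr7 no rise between neighbouring stages up to stage 45 was called. Between stages 40 and 42, 20 of the 34 genes rose and 2 fell, with 24.7% of all genes rising and 22.4% falling (47.0% in all); 12 of the 19 enzyme genes were among those that rose. From stage 42 to 44, 2 rose (fdft1 and msmo1, with 1.43% of all genes rising and 2.32% called), and from 44 to 45, 5 rose and 3 fell, with 11.6% and 11.2% of all genes (22.8% in all). Then 19 of 34 fell from stage 45 to 46 and 21 fell from stage 46 to 47, with 22.9% and 25.8% of all genes falling; 5 and 6 rose, with 19.2% and 23.0% of all genes (42.1% and 48.8% called in all). Over the course the sum of 8 of 10 radial glia and astroglia markers was 5812 to 6524 CPM at stage 40 and 4199.7 to 4405 CPM at stage 47, and that of 8 of 9 oligodendrocyte markers 117 to 128 and 358 to 369 CPM. At stage 47, 6 of the 8 radial glia and astroglia markers were lower than at stage 40 and 2 higher. Of the 8 oligodendrocyte markers 5 were higher and 1 lower. The sum of 9 melanocyte markers was 113 to 166 CPM at stage 40, 62.0 to 67.2 CPM at stage 45, 23.2 to 23.9 CPM at stage 46 and 21.6 to 24.6 CPM at stage 47, with 8 of the 9 lower at stage 47 than at stage 40. For 4 of 10 hepatocyte markers the sum was 8.64 to 13.6 CPM at stage 40, 6.82 to 9.02 CPM at stage 45, 12.1 to 14.8 CPM at stage 46 and 42.2 to 46.9 CPM at stage 47. Only 1 of these 4 markers was called higher at stage 47 than at stage 40, and 1 was lower. The sum of 6 of 11 leukocyte markers was 21.2 to 27.2 CPM at stage 40 and 41.7 to 45.0 CPM at stage 47. That of 5 of 8 red blood cell markers was 293 to 532 CPM at stage 40 and 746 to 885 CPM at stage 42. It was 726 to 900, 447 to 513, 589 to 942 and 337 to 447 CPM at stages 44, 45, 46 and 47. At stages 40 and 47 the endothelial sum was 129 to 137 and 152 to 162 CPM. In between it was 171 to 181, 182 to 194, 152 to 160 and 138 to 140 CPM at stages 42, 44, 45 and 46. Skeletal muscle sums varied within a stage, from 24.7 to 167 CPM at stage 42 and from 23.9 to 180 CPM at stage 44. The part of these markers in the stage results was not tested. Without stage 42 replicate 3, 8 of the 22 calls between stages 40 and 42 were lost. Both calls between stages 42 and 44 were lost without stage 42 replicate 2 or stage 44 replicate 2, and that of msmo1 also without either other stage 44 library. Between stages 44 and 45, 5 of the 8 calls (acly, acaca, scd, acat2 and srebf1) were lost without stage 44 replicate 2 and 3 without each stage 45 library. Of the 24 calls between stages 45 and 46, 6 were lost without stage 45 replicate 2 and 6 without stage 46 replicate 3. Of the 27 calls between stages 46 and 47, at most 2 were lost, without stage 46 replicate 1.

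The final fall ran through the pathway. From stage 46 to 47, 16 of the 19 enzyme genes fell and 3 did not pass. Stage 47 also lay below stage 40: 16 of the 19 were lower there and 2 higher, and over the 34 genes 22 were lower and 11 higher, where 40.8% and 40.0% of all genes were (80.8% in all). The call of each of these 33 genes held without each single library of either stage. All stage 47 libraries lay above all stage 40 libraries for 11 of the 34 genes and below for 22, where 40.5% and 41.2% of all genes did.

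Among mevalonate genes hmgcs1 had means (± SD, n = 3) of 122 ± 11.4 CPM at stage 40, 268 ± 32.1 CPM at stage 45, 145 ± 5.74 CPM at stage 46 and 81.3 ± 7.58 CPM at stage 47. Its libraries read 122, 133 and 110.1 CPM at stage 40 and 73.2, 88.3 and 82.4 CPM at stage 47, without overlap (-0.58 ± 0.09, adjusted p = 8.14e-06). Its neighbour acat2 peaked at stage 42 (43.7 ± 4.42 CPM) and stood at 11.04 ± 0.549 CPM at stage 47 (-1.54 ± 0.15 against stage 40). The kinase mvk was the exception of this step. Its libraries read 3.22, 3.84 and 3.61 CPM at stage 40 and 5.03, 5.65 and 4.82 CPM at stage 47. It was higher at stage 47 than at stage 40 (0.53 ± 0.16, adjusted p = 0.00371). That call was lost with limma on the deposited values (0.26, adjusted p = 0.068). It did not pass in any later step after its rise at stage 42 (0.72 ± 0.16).

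Of the squalene genes lss changed most. Its libraries read 39.1, 39.9 and 41.3 CPM at stage 40, with means of 41.3 ± 4.04 CPM at stage 42, 44.8 ± 4.12 CPM at stage 44, 46.1 ± 7.87 CPM at stage 45 and 23.95 ± 2.25 CPM at stage 46, and 12.2, 11.1 and 12.005 CPM at stage 47. No neighbouring stages up to stage 45 passed, lss fell in both later steps, and the end stages did not overlap (-1.77 ± 0.11, adjusted p = 9.02e-13). The genes sqle and fdft1 had their highest means at stage 45, at 90.003 ± 11.5 CPM and 66.3 ± 4.06 CPM, and were at 26.2 ± 2.85 CPM and 22.8 ± 1.65 CPM at stage 47.

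In the sterol steps msmo1 went from 24.8 ± 3.66 CPM at stage 40 to 58.1 ± 5.38 CPM at stage 45 and 11.1 ± 1.12 CPM at stage 47. The gene lbr did not pass between neighbouring stages up to stage 45 (18.2 ± 0.686 CPM) and read 5.76, 5.24 and 5.84 CPM at stage 47 against 17.9, 18.2 and 19.6 CPM at stage 40, again without overlap (-1.73 ± 0.12, adjusted p = 3.1e-12). Its partner enzyme tm7sf2 fell less (-0.70 ± 0.09), from 35.1, 30.9 and 28.7 CPM to 19.4, 18.5 and 20.2 CPM. The desaturase sc5d was higher at the end than at the start, at 5.06, 5.02 and 4.89 CPM at stage 40 and 7.40, 6.85 and 7.51 CPM at stage 47 (0.54 ± 0.13). It rose by 0.98 ± 0.13 at stage 42, then had -0.32 ± 0.13 at stage 46 (adjusted p = 0.0463, a call held in 5 of 18 fits without single libraries and lost with DESeq2, RLE scaling and the 5 CPM filter) and did not pass between stages 46 and 47 (-0.02 ± 0.13). The gene hsd17b7 was the 1 gene of 34 that did not pass between stages 47 and 40 (0.08 ± 0.07, adjusted p = 0.354).

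The SREBP genes parted over the same stages. Read by library, srebf2 was at 211, 221 and 201 CPM at stage 40 and 149, 155 and 143 CPM at stage 47, with a highest mean of 262 ± 14.7 CPM at stage 45 (-0.50 ± 0.06, adjusted p = 1.26e-07). In contrast srebf1 was at 56.4, 62.3 and 66.3 CPM at stage 40 and 105, 95.7 and 103 CPM at stage 47 (0.71 ± 0.09, adjusted p = 1.54e-07). Neither pair of end stages overlapped. Of their partners, scap fell (-0.87 ± 0.07) and insig1 rose (0.54 ± 0.08), with insig1 at 19.3, 19.7 and 16.9 CPM at stage 40, 32.8 ± 1.11 CPM at stage 45 and 26.9, 25.1 and 28.9 CPM at stage 47. On the uptake side ldlr fell by 1.34 ± 0.09. Its ligase mylip rose by 0.93 ± 0.12, from 7.11, 7.56 and 6.60 CPM to 12.5, 12.9 and 14.97 CPM, and of the neighbouring stages 46 and 47 alone passed (0.72 ± 0.12). The carrier stard4 fell by 0.89 ± 0.09 and soat1 by 0.52 ± 0.09.

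The efflux genes and 3 of the 4 fatty acid supply genes were higher at stage 47 than at stage 40. The pump abcg1 had the largest change of the 34 genes, from 2.83, 3.05 and 3.57 CPM at stage 40 to 23.2, 22.3 and 21.9 CPM at stage 47 (2.80 ± 0.19, adjusted p = 7.64e-12). Its relative abca1 stood at 112, 108 and 124 CPM at stage 40 and 105 ± 3.78 CPM at stage 45, then at 215 ± 16.4 CPM at stage 46 and 369, 356 and 414 CPM at stage 47. It did not pass between any neighbouring stages until stage 46, where it rose by 1.04 ± 0.09, and it rose again by 0.82 ± 0.09 at stage 47; over the whole course the change was 1.72 ± 0.09. The receptor gene nr1h2 rose by 0.54 ± 0.06, from 32.3, 34.9 and 35.3 CPM to 49.8, 52.4 and 46.8 CPM. The desaturase scd went from 10.1, 14.9 and 12.6 CPM at stage 40 to 69.8, 80.5 and 81.7 CPM at stage 47 (2.62 ± 0.13, adjusted p = 4.22e-14), and acaca from 33.2, 37.98 and 33.8 CPM to 138, 142 and 136 CPM (1.99 ± 0.10, adjusted p = 2.05e-14). All stage 47 libraries of these genes lay above all stage 40 libraries, as was so for 40.5% of all genes. The synthase fasn rose by 0.72 ± 0.09, with a change of 0.54 ± 0.09 between stages 40 and 42, and acly was the one fatty acid supply gene that fell (-1.21 ± 0.07).

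**Figure D3:**
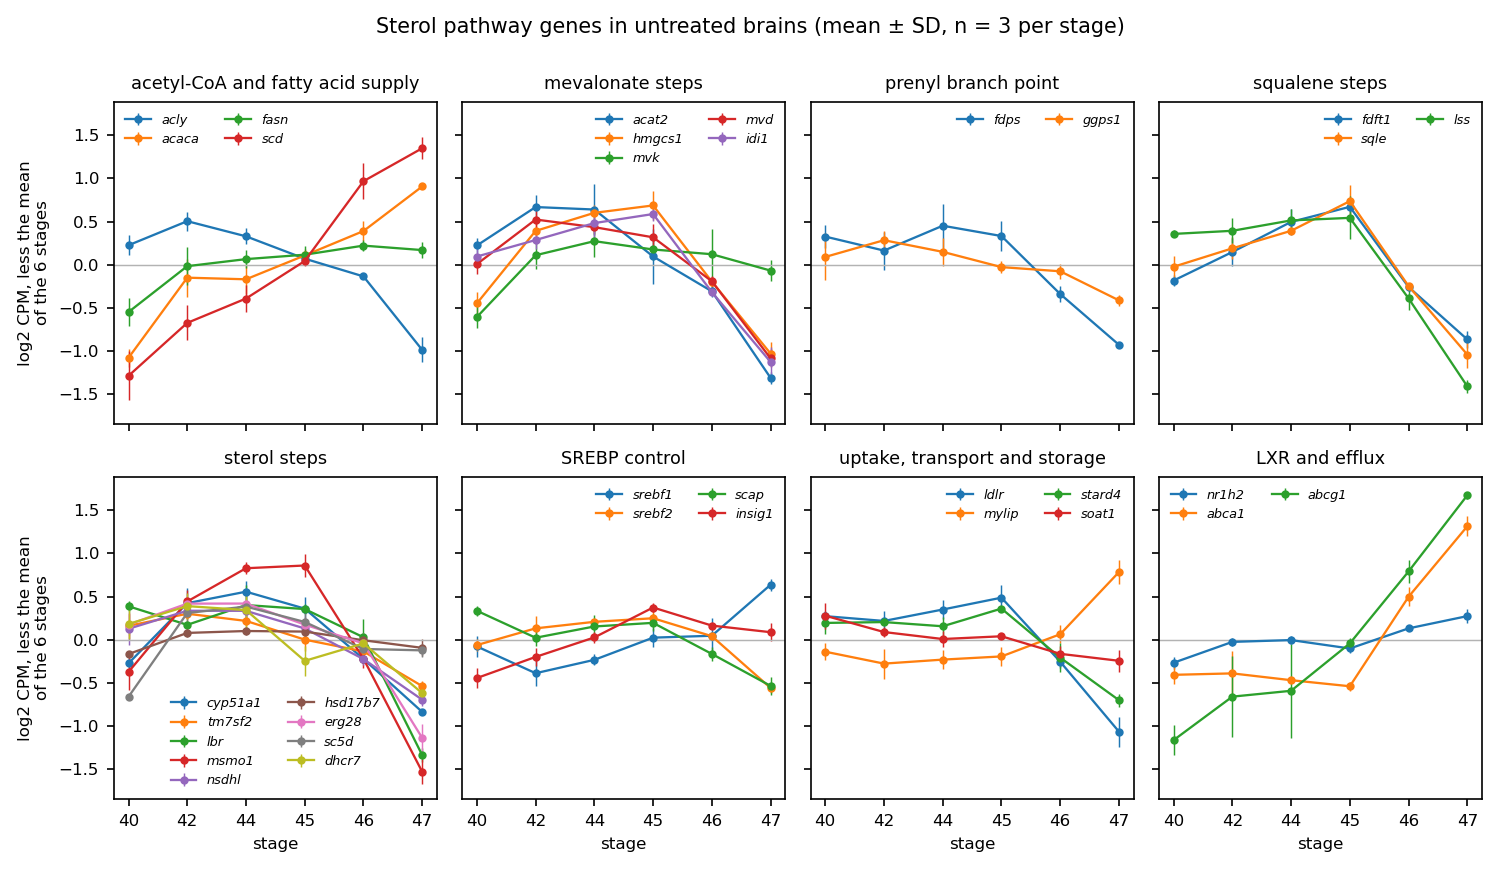
Log2 CPM less the gene's mean over the 6 stages (y axis) by stage (x axis, stages evenly spaced) for the 34 genes in 8 pathway steps; points are means and bars SDs of 3 libraries. The lines of most mevalonate, squalene and sterol genes end in a drop over stages 46 and 47 (13 and 16 of 19 fell in these steps, counting the branch point), with mvk, hsd17b7 and sc5d among the exceptions, while abca1, abcg1, scd and acaca end at their highest level.

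The direction of change over development and with cyclopamine was compared gene by gene. These comparisons share no library. Of the 19 genes that rose with cyclopamine, 16 were lower at stage 47 than at stage 40 and 3 (mvk, insig1 and nr1h2) were higher. Over all genes in both tables, 1383 rose with cyclopamine, of which 29.2% were lower at stage 47 and 48.2% higher. The 4 genes that fell with cyclopamine (fasn, scd, abca1 and abcg1) were all higher at stage 47, as were 23.0% of the 1552 genes that fell with cyclopamine, while 63.3% of those were lower. The genes lower at stage 47 that cyclopamine left uncalled were ggps1, lbr, nsdhl, scap, stard4 and soat1. Levels were not tested across the tables, which were normalized separately. Mean abca1 was 398 CPM in DMSO, 229 CPM with cyclopamine, 215 CPM at stage 46 and 379 CPM at stage 47. For acat2 these means were 9.31, 26.7, 22.1 and 11.04 CPM, and for abcg1 27.3, 11.5, 12.2 and 22.5 CPM. For hmgcs1 they were 97.3, 230.2, 145 and 81.3 CPM, and for msmo1 12.4, 46.7, 27.4 and 11.1 CPM, with cyclopamine well above stage 46. Whether the drug groups differed in developmental progress was not tested.

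**Figure D4:**
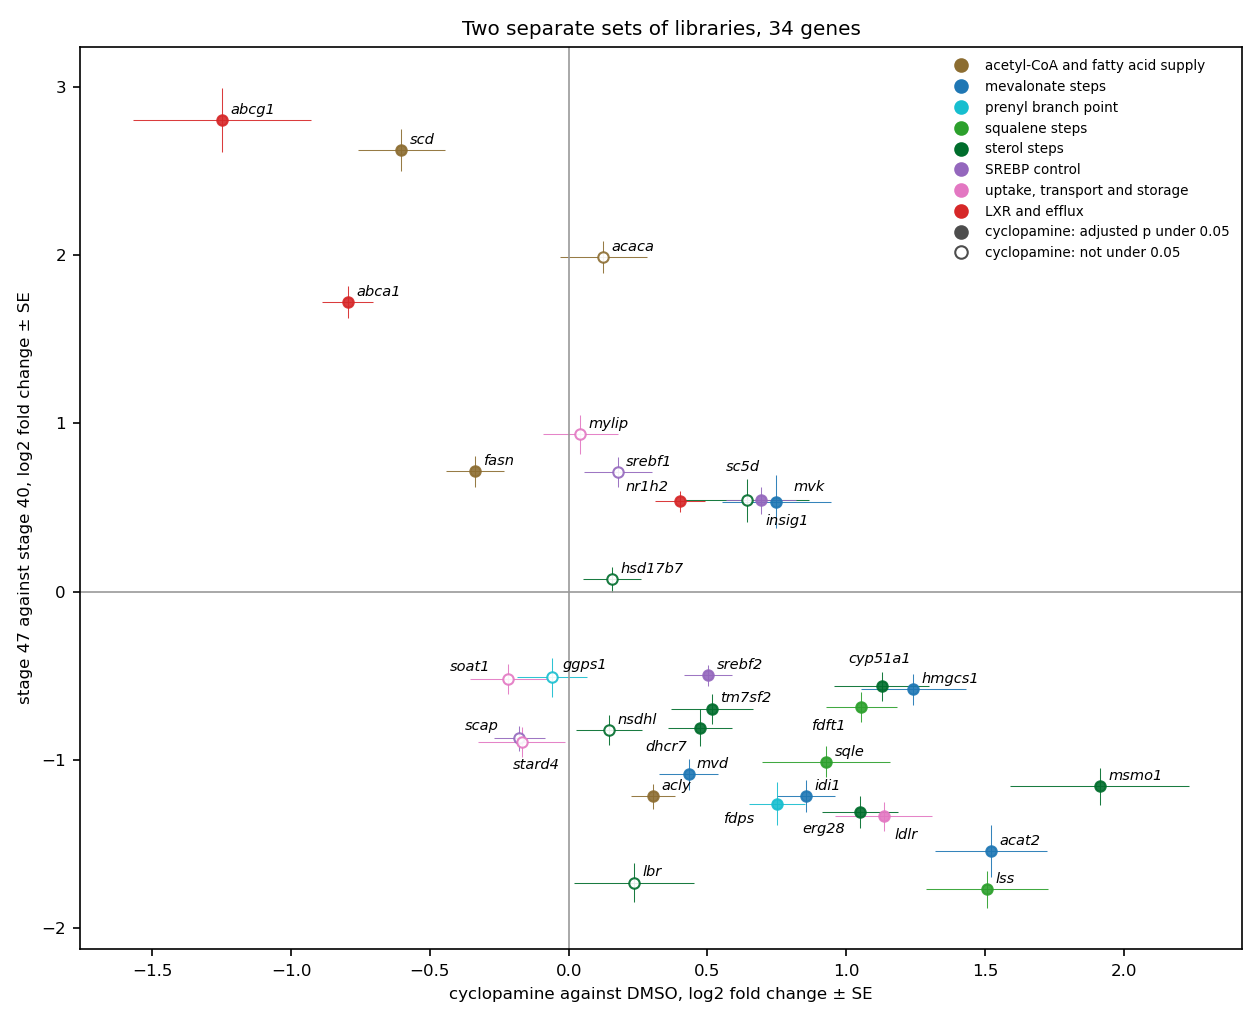
Log2 fold change ± SE of the 34 genes for cyclopamine against DMSO (x axis) and for stage 47 against stage 40 (y axis), coloured by step; filled points were called with cyclopamine. Of the filled points 16 lie at the lower right, and abcg1, scd, abca1 and fasn lie at the upper left.

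Other genes of sterol and lipid handling were counted on 6 lists. As above, 9.97% of all genes rose with cyclopamine and 9.59% fell, and counts of 1 or 2 genes on the longer lists lie near those shares. With cyclopamine 3 of 7 further genes of sterol synthesis rose and 4 did not pass, among the risers faxdc2, a member of the sterol desaturase and hydroxylase family (0.54 ± 0.14). Of 14 genes that use isoprenoids for quinones, dolichol or protein prenylation, 1 fell, the prenyl protein protease zmpste24 (-0.48 ± 0.10), and 13 did not pass. Of 10 genes that process or degrade SREBP, SCAP and INSIG proteins 1 fell, rnf145, a ligase that in mammals acts on SCAP (-0.45 ± 0.09). Of 22 lipoprotein, transport and storage genes 2 rose and 1 fell. The lysosomal cholesterol carrier npc2 rose from 34.8 ± 1.80 CPM to 105 ± 18.5 CPM (1.60 ± 0.12, adjusted p = 7.01e-05), the apolipoprotein gene apoa1 rose by 0.89 ± 0.18, and the phospholipid transfer protein gene pltp fell (-0.43 ± 0.12). The gene apoa1 is also 1 of the 3 measured hepatocyte markers, and the only 1 of them called with cyclopamine. Oxysterol genes were measured in 3 cases, of which ch25h, which makes the oxysterol that carries its name (2.40 ± 0.44, at 4.33 ± 2.42 CPM against 0.814 ± 0.303 CPM), and cyp7b1, which breaks oxysterols down (0.66 ± 0.15), rose. Fatty acid genes were mixed, with 4 of 20 higher and 3 lower. The malic enzyme me1 (2.69 ± 0.44) and the elongase elovl5 (1.22 ± 0.22) rose, and the acyl-CoA synthetase acsl4 fell (-0.61 ± 0.17). The calls of npc2, apoa1, rnf145, ch25h, me1 and elovl5 held without each single library, and those of faxdc2, zmpste24, pltp, cyp7b1 and acsl4 did not. With estradiol 1 of the genes on these lists was called, acsl4 (-0.81 ± 0.17), which was lost without estradiol replicates 1 or 3 or any DMSO library. In the direct contrast npc2 (-1.06 ± 0.12), ch25h (-1.65 ± 0.42) and me1 (-1.94 ± 0.41) were lower with estradiol than with cyclopamine and pltp was higher (0.73 ± 0.12). The calls of npc2 and pltp held without each single library, that of ch25h held only without cyclopamine replicate 2, and that of me1 was lost without estradiol replicate 2 or cyclopamine replicates 1 or 3.

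Over development, where 40.0% of all genes were higher at stage 47 and 40.8% lower, 4 of 7 further sterol synthesis genes were higher at stage 47 than at stage 40 and 2 lower, with faxdc2 (2.54 ± 0.09) and cyb5r3, a reductase that passes electrons to sterol oxidases (1.32 ± 0.10), among the higher ones. Of 14 isoprenoid genes 10 fell between stages 40 and 47 and 4 did not pass, led by zmpste24 (-1.59 ± 0.10), nus1, a subunit of the dolichol-making enzyme (-1.40 ± 0.11), and pdss1, which makes the tail of ubiquinone (-1.25 ± 0.10). Of 10 SREBP processing and degradation genes 7 fell and 3 rose, with vcp, which extracts ubiquitinated proteins from the endoplasmic reticulum (-1.39 ± 0.07), its cofactor ufd1 (-0.82 ± 0.06) and erlin2 (-1.29 ± 0.07) among the falls. Of 22 lipoprotein, transport and storage genes 10 rose and 8 fell, shares near those of all genes. The lipid transfer protein pltp rose from 38.4 ± 1.08 CPM to 242 ± 3.80 CPM (2.66 ± 0.07), the transporter abca2 by 1.90 ± 0.09, and gramd1b, which carries cholesterol from the plasma membrane inward, by 2.17 ± 0.12. Both measured oxysterol genes rose, cyp39a1 by 2.12 ± 0.13 and cyp7b1 by 0.81 ± 0.14. Of 18 fatty acid genes 7 rose and 10 fell, with the phosphatidate phosphatase lpin1 highest among the rises (2.22 ± 0.08) and hacd3, a dehydratase of fatty acid elongation (-1.52 ± 0.09), and elovl5 (-1.22 ± 0.08) among the falls.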

How the data were processed

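Poly(A)-selected, stranded RNA libraries were sequenced, per the labels' protocols. Raw read counts of each gene were deposited by the authors for the drug experiment (9 libraries) and separately for the time course (18 libraries), along with normalized log2 values, which from the values themselves are log2(CPM + 1) after full-quantile normalization. STAR 2.7.3 is listed in the submitters' processing notes. Build, annotation, counting tool and strand setting are not stated in those labels or notes. Rows as deposited all reach 1 CPM in 3 or more libraries. Members were the rows whose symbol equals a listed symbol. The genes, lists and tests were chosen with earlier results of these data known, so no p-value over the list was formed.

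Each count table was fitted whole in edgeR 4.0.16 (R 4.3.3) with TMM, filterByExpr (which removed 0 genes from either table), a mean per group, no covariate, and edgeR's quasi-likelihood F-test with robust dispersions, with Benjamini-Hochberg adjustment over all genes; a call is an adjusted p under 0.05. The SE is the absolute log2 fold change divided by the square root of F. Alternatives were relative log expression factors, DESeq2 1.42.0, limma 3.58.1 on the deposited log2 values, no filter, a filter at 5 CPM in 3 libraries, a replicate block, fits of only the groups compared, and leaving out each library. The fit was also run on simulated counts in which all groups of a gene had the same spread. Those counts therefore cannot show how the fit behaves with unequal spreads, as found among the drug groups. All 34 genes are named. Values in every library are given for the called genes with the largest changes, for paired paralogs and for genes that move against their step. From other lists up to 3 called genes with the lowest p per list are named. Some genes that this rule names are not reported here. Equal replicate numbers are not tied to a clutch or a day in the labels, and nothing states separate clutches, so p-values measure the spread between these libraries, which may in part be technical. The CPM and count precision rests on 12.9 to 48.3 M counts per library.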

Additional observations from a re-analysis of the deposited data

How the results depend on the processing

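The number of the 34 genes called with cyclopamine against DMSO was 23. It was 20 to 24 with the other size factors, filters and tools, with the fit of these groups alone and with the replicate block, and 13 to 18 without single libraries. The setting without a filter repeats the main fit here and below, since the filter removed 0 genes. With estradiol against DMSO the count of 1 was 2 with the replicate block (abca1 and lss), 5 with DESeq2, 0 with limma on the deposited values, 0 in a fit of only these groups, and 0 to 5 without single libraries. For estradiol against cyclopamine the count of 12 was 1 in a fit of only these groups, 6 with cyclopamine replicate 1 as the sole library of its group (an alternative added after the data had been seen) and 7 to 13 without single libraries; the other settings gave 12 to 17. For stage 47 against stage 40 the count of 33 ran from 32 to 34, for any stage it was 34 throughout, and for neighbouring stages it ran from 32 to 34. The cause of these differences was not tested. Where a library is left out, having fewer libraries and losing that library's own values cannot be told apart. No call of a gene changed sign under any of these settings.

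Deviations from the group mean were correlated between libraries of different groups. Of same-numbered pairs, 3 of 9 in the drug table (r from -0.38 to 0.28) had a correlation over 0.1. In the time course 10 of 45 did (r from -0.30 to 0.31). Of differently numbered pairs, 5 of 18 (r from -0.445 to 0.504) and 23 of 90 (r from -0.335 to 0.396) did. These values cannot show whether equal numbers share a clutch or a day, so pairing remained unknown. With the replicate block 21 genes were called with cyclopamine, 13 between the drugs (acly and nr1h2 were lost and sqle, lss and msmo1 gained), 33 between stages 47 and 40, 34 among any stages and 33 between neighbouring stages. Counts were lowest, among the 34 genes, for mvk, sc5d, lbr and acat2 in DMSO (4.25, 6.76, 8.79 and 9.31 CPM), and abcg1 had the lowest mean at stage 40 (3.15 CPM); SEs with cyclopamine were largest for msmo1 and abcg1 (both 0.32).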

Other observations

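Libraries of 1 drug group differed among themselves in these genes. In estradiol replicate 1 the level was the highest of the 3 estradiol libraries for 13 of the 19 enzyme genes from the mevalonate to the sterol steps (68.4%), against 30.3% of all genes, and 15 of the 19 lay above all DMSO libraries, against 35.0% of all genes. The same comparison gave 9 of 19 above DMSO in estradiol replicate 2 and 13 of 19 in estradiol replicate 3 (32.3% and 40.3% of all genes). In cyclopamine replicate 1, 13 of the 19 were likewise the highest of their group (68.4%, against 36.1% of all genes), while 18, 17 and 17 of 19 lay above all DMSO libraries in cyclopamine replicates 1, 2 and 3 (31.4%, 30.9% and 31.5% of all genes). These counts were made after the values were seen and have no test. Estradiol replicate 1 also had the highest sum of the measured red blood cell markers, 1329 CPM against 359.5 and 749.7 CPM in replicates 2 and 3, and of the neuronal markers, 7010.1 CPM against 6271 and 4526 CPM. Cyclopamine replicate 1 had the highest sums of its group for skeletal muscle (148 CPM), melanocyte (127 CPM), leukocyte (116 CPM), endothelial (474 CPM) and red blood cell markers (505 CPM) and the lowest for neuronal markers (4882 CPM). For radial glia and astroglia markers it was the highest of its group (6155 against 4962 and 5474 CPM), while estradiol replicate 1 was the lowest (5392 against 5819 and 6817 CPM). Both libraries had the lowest oligodendrocyte sum of their group (204 CPM with cyclopamine, 190.5 CPM with estradiol). The part of these markers in the pattern was not tested.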
